A study of Mus musculus with 2 samples.

Results

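JAK kinases, STAT factors and SOCS proteins form a relay from cytokine receptors to the nucleus and a brake on that relay. The 9 genes described here are Jak1, Jak2, Stat2, Stat3, Stat4, Stat6, Socs1, Socs3 and Cish, taken by gene name from the 54532 genes measured. All 9 were found. The study compared aortic macrophages of dyslipidemic mice with the Phlegm-Dampness Retention (PDR) syndrome or the Spleen and Kidney Yang Deficiency (SKYD) syndrome, both defined in traditional Chinese medicine. All mice were ApoE-/- on a C57BL/6J background and were labelled as 6 weeks old. ApoE-/- mice lack apolipoprotein E and clear blood lipids poorly. Mice of the PDR group received 4 weeks of high-fat diet. In the SKYD group, 4 weeks of propylthiouracil, which blocks thyroid hormone synthesis, at 10 mg/kg per day came first and 2 weeks of high-fat diet followed. Cells were sorted from the aorta on F4/80 and CD11b, and the cells of 5 mice made 1 RNA sequencing library per group. Syndrome, drug, length of diet and time on the protocol therefore cannot be told apart, and no difference below has a replicate check.

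A cytokine brings its receptor chains together, the JAK kinases bound to them phosphorylate each other and the receptor, and STAT proteins dock, are phosphorylated and enter the nucleus as dimers. Among the genes they switch on are Socs1, Socs3 and Cish, whose products bind the receptor or the kinase and shut the signal down. Type I interferons act through STAT2 among others, the IL-6 and IL-10 families through STAT3, IL-12 through STAT4, and IL-4 and IL-13 through STAT6. Most control of STAT proteins is by phosphorylation, which RNA does not show.

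Levels are FPKM, fragments per kilobase of gene length scaled to the size of the library, as the authors gave them. FPKM times gene length was a whole multiple of 1 step in each library, within 0.001 reads for 100% of genes above 0, so the reads behind each value could be recovered. They summed to 23086889 on genes in PDR and 25427863 in SKYD. A fold below is the ratio of FPKM, with a 95% exact (Clopper-Pearson) interval from the split of the gene's reads, which covers counting error only. A log2 difference is log2(FPKM + 1) in PDR minus that in SKYD, which understates folds of low genes. A gene was tested where its FPKM averaged 1 or more over the libraries, which held for 10399 genes, and it was counted as apart when this difference passed 1 in either direction, a 2-fold change. The median difference of 18 macrophage markers was -0.65. An alternative that centres on this median adds 0.65 to every difference, so that any value from -0.65 to 0 below changes direction under it. With it, 24.6% of all tested genes passed 2-fold in PDR and 3.13% in SKYD, the background for each count given under this centring. A gene high in 1 library can pass the filter through that library alone, so counts among tested genes of low level are in part selected by the difference. Genes of a list are ordered in level by the mean FPKM of both libraries, and the order can differ within a library.

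Of the 9 genes, 8 were tested, and Cish was under the filter. Higher in PDR by more than 2-fold were 0 genes, against 7.38% of all tested genes. Higher in SKYD by more than 2-fold was 1 gene, Socs3, against 6.91% of all tested genes. With 8 genes, these shares differ from the background by less than 1 gene. The same 7.38% in PDR and 6.91% in SKYD are the background for each list count below in the main setting. The median log2 difference of the 8 genes was 0.14, beside -0.00 over all tested genes, with 4 genes on each side of 0. This median turned negative with no filter (-0.032) and at a filter of 5 FPKM (-0.065). Centred on macrophage markers, it was 0.79. Several genes lay close to the threshold. By the plain ratio of FPKM, a rule chosen after seeing the data, 2 of the 8 genes passed 2-fold in PDR (Stat2 and Stat4, against 10.5% of tested genes) and 2 in SKYD (Socs1 and Socs3, against 10.1%). Jak1 and Stat3 were close to equal, Jak2, Stat2, Stat4 and Stat6 were higher in PDR, and the 3 feedback genes were higher in SKYD, Cish not so when centred on macrophage markers.

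**Figure D1:**
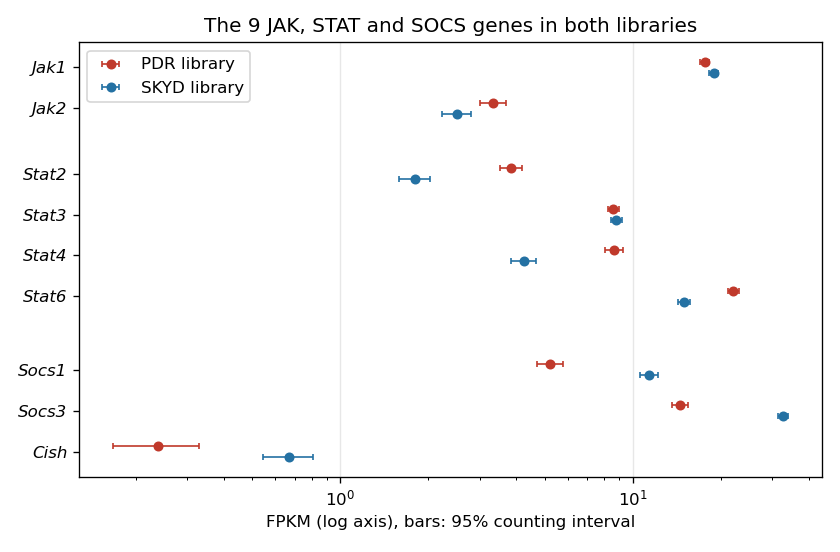
FPKM of the 9 genes on a log axis in the PDR library (red) and the SKYD library (blue), with 95% Poisson intervals of the reads as bars. Socs3 was at 14.5 and 32.6, Stat6 at 22.1 and 15.0, and the points of Stat3 lie nearly on each other.

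RefSeq promoter windows of GRCm38.p6, 250 bases before to 50 after a start site, were found for all 9 genes. They were searched on both strands for TTCNNNGAA, the pattern that most STAT dimers bind, for TTCNNNNGAA, the wider spacing favoured by STAT6, and for GAAANNGAAA, the core of the interferon-stimulated element bound by the complex of STAT2 and IRF9 and by IRF proteins. The shares of all 32851 windows holding them were 8.30%, 6.95% and 3.44%. The first pattern was found in 2 of the 9 genes, Socs3 and Cish, the wider spacing in 1, Stat2, and the interferon pattern in 3, Socs1, Stat2 and Stat4. Windows with a match are printed 5′ to 3′ along the gene, with matched bases in capitals. Their positions are chr16:10785487-10785786 (minus strand) for Socs1, chr11:117969317-117969616 (minus) for Socs3, chr9:107296409-107296708 (plus) for Cish, chr10:128270248-128270547 (plus) for Stat2 and chr1:52007990-52008289 (plus) for the downstream of 2 start sites of Stat4.

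Socs1: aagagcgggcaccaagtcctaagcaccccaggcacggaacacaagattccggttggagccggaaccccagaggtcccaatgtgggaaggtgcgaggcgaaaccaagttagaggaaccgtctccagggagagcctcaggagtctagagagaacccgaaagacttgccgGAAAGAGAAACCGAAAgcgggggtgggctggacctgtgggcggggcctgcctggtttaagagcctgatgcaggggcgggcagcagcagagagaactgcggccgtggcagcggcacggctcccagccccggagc
Socs3: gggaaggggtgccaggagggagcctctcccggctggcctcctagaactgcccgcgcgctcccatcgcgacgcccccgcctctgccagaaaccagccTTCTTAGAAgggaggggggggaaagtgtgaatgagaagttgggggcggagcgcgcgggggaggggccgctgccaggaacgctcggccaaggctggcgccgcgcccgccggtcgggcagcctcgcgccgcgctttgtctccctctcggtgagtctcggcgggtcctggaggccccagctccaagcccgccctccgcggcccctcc
Cish: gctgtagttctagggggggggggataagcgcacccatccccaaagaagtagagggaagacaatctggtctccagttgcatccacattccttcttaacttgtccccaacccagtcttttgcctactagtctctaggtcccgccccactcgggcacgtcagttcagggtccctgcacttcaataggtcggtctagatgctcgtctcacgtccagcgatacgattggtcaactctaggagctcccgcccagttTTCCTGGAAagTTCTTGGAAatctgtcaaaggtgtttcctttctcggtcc
Stat2: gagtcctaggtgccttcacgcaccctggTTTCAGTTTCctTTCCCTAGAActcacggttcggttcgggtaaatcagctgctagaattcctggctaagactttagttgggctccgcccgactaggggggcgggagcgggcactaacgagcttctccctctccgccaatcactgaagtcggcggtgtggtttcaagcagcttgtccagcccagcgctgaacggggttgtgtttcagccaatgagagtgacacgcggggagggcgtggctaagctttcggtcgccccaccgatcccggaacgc
Stat4: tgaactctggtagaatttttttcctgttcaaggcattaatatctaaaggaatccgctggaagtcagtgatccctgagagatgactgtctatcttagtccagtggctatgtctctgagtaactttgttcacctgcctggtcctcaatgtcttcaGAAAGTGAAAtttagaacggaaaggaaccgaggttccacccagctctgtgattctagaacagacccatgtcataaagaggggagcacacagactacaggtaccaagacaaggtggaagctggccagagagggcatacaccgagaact

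In Socs1 the capitals hold 2 overlapping matches of the interferon pattern. Cish has a pair of TTCNNNGAA matches, TTCCTGGAA and TTCTTGGAA, at its start site, and Socs3 has 1, TTCTTAGAA, upstream of it. Stat2 has an interferon match on the minus strand beside a match of the wider spacing. For Jak1, Jak2, Stat3, Stat6 and the other start site of Stat4, these letters are not in the window. Among target genes with a window, the interferon pattern was in 7 of 14 type I interferon targets and 8 of 15 interferon-gamma targets, against 1 of 15 STAT3 targets and 0 of 13 STAT6 targets. TTCNNNGAA was in 3 of 15 STAT3 targets, 3 of 14 type I interferon targets, 7 of 15 interferon-gamma targets and 3 of 13 STAT6 targets. The wider spacing was in 4 of 13 STAT6 targets, 3 of 15 STAT3 targets, 2 of 14 type I interferon targets and 1 of 15 interferon-gamma targets. A match is a run of letters and was not tested as a binding site.

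Jak1 (ENSMUSG00000028530, chr4:101152367-101265282 of GRCm38, minus strand) encodes the kinase shared by interferon, gp130 and common gamma chain receptors. Its level was 17.6 FPKM in PDR and 18.9 in SKYD, from 2987 and 3413 reads. The SKYD level was 1.07-fold that of PDR (95% interval 1.02 to 1.13), a log2 difference of -0.10. Jak1 was thus nearly level between the libraries, and its sign turned, to 0.55, when differences were centred on macrophage markers. Jak2 (ENSMUSG00000024789, chr19:29251828-29313080, plus strand), the kinase of the interferon-gamma, IL-12 and common beta chain receptors, had 3.33 FPKM in PDR and 2.51 in SKYD. Its reads numbered 394 and 315, and the fold was 1.33 in favour of PDR (95% interval 1.14 to 1.55).

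The other members of the kinase family were both expressed. Jak3, which pairs with the common gamma chain, had 4.62 FPKM in PDR and 3.10 in SKYD, a log2 difference of 0.45. Tyk2, which serves type I interferon and IL-12 receptors, had 3.62 and 1.91 FPKM, a log2 difference of 0.67. None of the 4 kinases passed 2-fold, but Jak3 at 1.10 and Tyk2 at 1.32 did so in PDR when centred on macrophage markers. Jak1 made up 60.3% of the summed FPKM of the 4 genes in PDR and 71.5% in SKYD, so it was the most abundant kinase RNA per length in both libraries.

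Stat2 (ENSMUSG00000040033, chr10:128270559-128292849, plus strand) encodes the subunit that joins IRF9 in the complex formed after type I interferon. It was measured at 3.85 FPKM in PDR, from 536 reads, and at 1.80 FPKM in SKYD, from 267 reads. PDR was 2.14-fold higher (95% interval 1.84 to 2.48). On the log2(FPKM + 1) scale the difference was 0.79, under the threshold, and 10.2% of tested genes had a larger difference towards PDR. Its partner Irf9 had 17.4 and 12.5 FPKM, a log2 difference of 0.45.

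Stat4 (ENSMUSG00000062939, chr1:51987148-52107189, plus strand), the factor of the IL-12 response, best known from T and NK cells, was at 8.65 FPKM in PDR and 4.24 in SKYD. There were 787 and 410 reads, and PDR was 2.04-fold higher (95% interval 1.81 to 2.31). The log2 difference of 0.88 was the largest towards PDR among the 8 tested genes. Stat6 (ENSMUSG00000002147, chr10:127642986-127660957, plus strand), the factor of IL-4 and IL-13 signalling, had 22.1 FPKM from 2282 reads in PDR and 15.0 FPKM from 1646 reads in SKYD. The fold was 1.48 (95% interval 1.38 to 1.57) and the log2 difference 0.53. Its interval excluded an equal level, yet 16.9% of tested genes differed more towards PDR.

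Stat3 (ENSMUSG00000004040, chr11:100885098-100939540, minus strand), which carries IL-6, IL-10 and G-CSF signals, was at 8.58 FPKM in PDR and 8.80 in SKYD, from 1921 and 2095 reads. The ratio of PDR to SKYD was 0.976 (95% interval 0.917 to 1.04), so no difference was detectable at this depth, and the sign of its log2 difference, -0.03, turned when scaled by the reads on genes and with centring on macrophage markers (0.62). Of all tested genes, 94.4% differed more in absolute size.

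The STAT5 genes were both lower in PDR on the main scale. Stat5b, which acts downstream of growth hormone, IL-2 and GM-CSF, had 3.80 and 10.2 FPKM and was 2.68-fold higher in SKYD (95% interval 2.42 to 2.97). Stat5a, its close relative, had 1.92 and 2.86 FPKM, a log2 difference of -0.40 that became 0.25 when centred on macrophage markers. The log2 difference of Stat5b was -1.22, past the threshold, and -0.57 when centred on macrophage markers, which did not pass.

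Some of these genes share sequence or position with others. A predicted gene, Gm28177, covers exons of Stat4 on the same strand, and 18% of the 100-base windows of Stat4 transcripts also occur in it. Gm28177 itself had 3 reads in each library. How reads in shared exons were counted is not known, so the level of Stat4 is uncertain. Stat5a and Stat5b share 265 windows, 3.44% and 4.79% of theirs. The end of Stat3 overlaps 72 exon bases of Stat5a on the opposite strand, and 40 exon bases of Stat6 overlap Nab2. Cish shares 6.75% of its windows with Gm17040 and Gm17041 on the opposite strand, which had 10 and 0 reads in PDR and 0 in SKYD. Jak2, Stat2, Socs1 and Socs3 had 0 overlapping exon bases and 0 shared windows.

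Socs3 (ENSMUSG00000053113, chr11:117966079-117970047, minus strand) encodes the inhibitor that binds gp130 and the G-CSF receptor together with JAK. Its level was 14.5 FPKM in PDR, from 983 reads, and 32.6 FPKM in SKYD, from 2359 reads. SKYD was 2.26-fold higher (95% interval 2.09 to 2.43), a log2 difference of -1.12. This was the gene of the 9 that passed the threshold, and 5.83% of tested genes differed more towards SKYD. Centred on macrophage markers, the difference was -0.47 and did not pass.

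Socs1 (ENSMUSG00000038037, chr16:10782240-10785536, minus strand), which inhibits JAK1, JAK2 and TYK2 and limits interferon signalling, was at 5.23 FPKM in PDR and 11.4 in SKYD. The reads were 357 and 825, and SKYD was 2.17-fold higher (95% interval 1.92 to 2.47). The log2 difference of -0.99 lay just inside the threshold and passed it with smaller pseudocounts and with FPKM rescaled to TPM. Cish (ENSMUSG00000032578, chr9:107296026-107302784, plus strand), an inhibitor of STAT5 signalling, had few reads, 36 in PDR and 107 in SKYD. Its FPKM of 0.239 and 0.667 gave a ratio of 2.79 in favour of SKYD (95% interval 1.90 to 4.20). Cish turned to a positive difference, 0.22, when centred on macrophage markers, while Socs1 and Socs3 stayed negative in every setting run.

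The 5 other SOCS genes differed less. Socs6 had 3.45 FPKM in PDR and 2.51 in SKYD, a log2 difference of 0.35, and Socs2 had 1.74 and 1.93, a log2 difference of -0.10 that turned to 0.55 with centring on macrophage markers. Socs4, Socs5 and Socs7 were under a mean FPKM of 1 and had log2 differences of 0.14, 0.23 and -0.05, the last of which also turned with centring, to 0.60. Over the 8 SOCS genes the summed level was 27.1 FPKM in PDR and 50.7 in SKYD. Socs3 and Socs1 together supplied most of both sums, with 53.3% and 19.3% in PDR and 64.4% and 22.4% in SKYD.

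**Figure D2:**
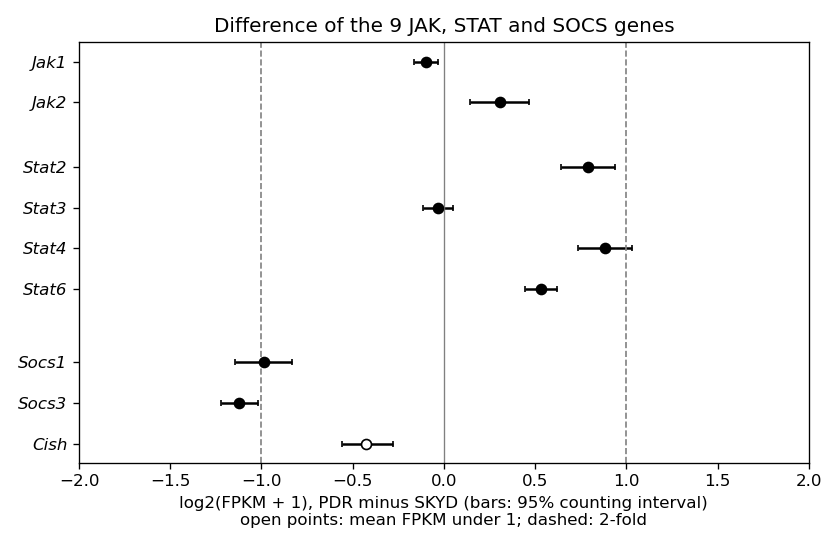
Log2(FPKM + 1) differences, PDR minus SKYD, of the 9 genes, with 95% counting intervals as bars, dashed lines at 2-fold and an open point for Cish, whose mean FPKM was under 1. Socs3 lies beyond -1 at -1.12, and Socs1 at -0.99 touches the line.

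The order of levels per length differed between the libraries. In PDR it ran Stat6, Jak1, Socs3, Stat4, Stat3, Socs1, Stat2, Jak2 and Cish, and the Poisson intervals of Stat4 and Stat3 overlapped, as did those of Stat2 and Jak2. In SKYD it ran Socs3, Jak1, Stat6, Socs1, Stat3, Stat4, Jak2, Stat2 and Cish, and the intervals of no neighbours overlapped. Socs3 thus stood 3rd in PDR and 1st in SKYD. Against all tested genes, Socs3 had a higher mean FPKM than 76.9%, Stat6 than 73.3%, Jak1 than 73.0% and Stat2 than 29.9%.

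Of 32 cytokine genes, which start these pathways, 8 were tested, of which 4 passed 2-fold in PDR and 1 in SKYD, with a median log2 difference of 0.87. Il12a and Il12b passed the filter through PDR alone. With no filter the counts were 4 and 2 and the median was 0.13, and at a filter of 5 FPKM the counts were 1 and 1. The 4 were Il27, Il12a, Il12b and Il10. Il27, a gp130 cytokine that activates STAT3 among others, had 8.26 FPKM in PDR and 1.88 in SKYD (198 and 48 reads), the largest difference towards PDR, at 1.68. Il12a and Il12b encode the chains of IL-12, the main activator of STAT4. Il12a had 179 and 34 reads and Il12b had 121 and 13, log2 differences of 1.61 and 1.52. Il10, which signals through STAT3, had 101 and 36 reads, a log2 difference of 1.03.

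In SKYD, Osm (oncostatin M), a gp130 cytokine that activates STAT3, was 4.55-fold higher (95% interval 3.88 to 5.36), with 3.47 FPKM in PDR and 15.8 in SKYD. Il6 had 255 and 413 reads and 4.47 and 6.81 FPKM, a log2 difference of -0.51. First by mean FPKM were Ebi3, with 14.2 and 8.67 FPKM, Osm, and Il15, with 10 and 5.75 FPKM.

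The interferon and IL-4 genes were under the filter. Ifng had 39 reads in PDR and 6 in SKYD, a ratio of 6.92 (95% interval 2.91 to 20.0). Ifnb1 had 0 reads in PDR, a count that allows up to 3, and 12 reads in SKYD. Il4 had 1 read in PDR and 49 in SKYD, a ratio of 46.0 in favour of SKYD (95% interval 7.89 to 1855). Il13 had 0 reads in both, and 14 of the 32 ligand genes had at most 3 reads in each library.

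Of 43 receptor chain genes, 25 were tested, and the median log2 difference was 0.06. More than 2-fold higher in PDR was 1 gene, against 7.38% of all tested genes, and in SKYD 0 were, against 6.91%. By the plain ratio of FPKM, 4 passed in PDR, against 10.5%, and 0 in SKYD, against 10.1%. Of the 4, Il2ra and Il12rb1 passed the filter through PDR alone. Il6st, which passed 2-fold by neither rule, did so through SKYD alone. The 1 gene of the main setting was Il2rb, the beta chain for IL-2 and IL-15. It had 6.65 FPKM in PDR and 2.36 in SKYD, a log2 difference of 1.19. In the interferon family, 4 of 5 genes were tested, with a median of 0.10. Ifngr1, of the interferon-gamma receptor, was the most abundant receptor RNA, at 114 FPKM in PDR and 168 in SKYD, a log2 difference of -0.55. Ifngr2, the other chain, went the opposite way, with 37.2 and 24.3 FPKM, a difference of 0.60. Ifnar2, a chain of the type I interferon receptor, had 27.5 and 34.4 FPKM. Its other chain, Ifnar1, went the opposite way, with 7.80 and 5.13 FPKM, a difference of 0.52.

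In the gp130 family, 6 of 9 genes were tested, with a median of -0.09 that turned positive with a mean FPKM of 5 or more or with centring on macrophage markers. Csf3r, the G-CSF receptor, had 12.6 and 7.67 FPKM, the largest difference towards PDR at 0.65. Il6ra had 1.0 and 1.67 FPKM, the largest towards SKYD at -0.42, and Il6st, gp130 itself, had 0.997 and 1.66. Il27ra had 4.67 and 5.68 FPKM, and Il11ra1 had 4.13 and 3.94. The common gamma chain family had 9 of 11 genes tested and a median of -0.15, which turned positive with that centring. Il2rg had 70.8 and 60.6 FPKM, Crlf2, the TSLP receptor, had 16.8 and 27.7 and the largest difference towards SKYD at -0.69, and Il13ra1 had 24.3 and 20.0. Il4ra, the IL-4 receptor chain that binds STAT6, had 10.8 and 12.0 FPKM.

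Of the common beta chain family, 3 of 5 genes were tested, with a median of -0.08, which turned positive with that centring. Csf2ra had 39.1 and 46.8 FPKM, the largest difference towards SKYD at -0.26, Csf2rb had 7.51 and 8.02, and Il5ra had 4.32 and 1.94, a difference of 0.86 towards PDR. Of 6 genes for IL-10 family receptors, 2 were tested, Il10ra at 19.3 and 12.3 FPKM and Il10rb at 19.3 and 18.4. Il12rb1, with 2.12 and 0.809 FPKM, was the 1 tested IL-12 family receptor, a difference of 0.78. Il12rb2 was under the filter, at 0.505 FPKM in PDR and 0.316 in SKYD. None of the 4 single-chain receptors reached a mean FPKM of 1. Centred on macrophage markers, 8 of the 25 tested receptor genes passed 2-fold in PDR, against 24.6% of all tested genes, and 0 in SKYD, against 3.13%.

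Other regulators of the relay showed 0 of 15 tested genes past 2-fold in either direction, with a median of 0.15. Centred on macrophage markers, 4 passed in PDR, against 24.6% of all tested genes, and the median was 0.80. Ptpn6, which encodes the phosphatase SHP-1 and dephosphorylates JAKs, was the most abundant, with 185 FPKM in PDR and 114 in SKYD, and had the largest difference towards PDR, 0.70. Ptpn11, which encodes SHP-2, had the largest towards SKYD, -0.64, at 2.46 and 4.40 FPKM. The phosphatase genes Ptpn1, with 51.6 and 53.4 FPKM, and Ptpn2, with 29.6 and 26.7, were the next in level. Usp18, a brake on the type I interferon receptor, had 19.1 and 12.2 FPKM.

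**Figure D3:**
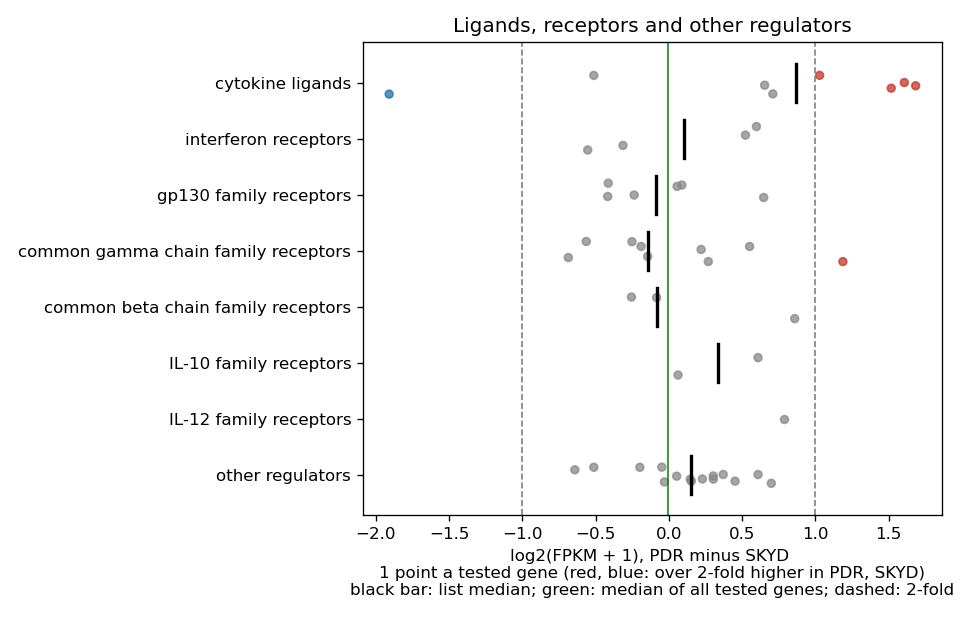
Log2(FPKM + 1) differences, PDR minus SKYD, of tested ligand, receptor and other regulator genes, 1 point a gene, with list medians as black bars and dashed lines at 2-fold. Of the 25 tested receptor genes, 1 lies beyond 2-fold on this scale, and 4 are so by the plain ratio.

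Known targets of each pathway were compared by the same counts. Of 20 interferon-gamma targets, 16 were tested and 14 were more than 2-fold higher in PDR, with 0 in SKYD and a median log2 difference of 1.93. The largest was Iigp1, an immunity-related GTPase, with 74.1 FPKM in PDR and 3.45 in SKYD, a log2 difference of 4.08. First by mean FPKM were Psmb9, an immunoproteasome subunit (134 and 50.4 FPKM), Igtp (127 and 39.4) and Gbp2 (130 and 16.8). Fcgr1, also a macrophage marker, had the smallest difference, 0.54. Whether the listed type I interferon targets depend on STAT2 in these cells was not tested. This list had 18 of 20 genes tested, of which 8 passed 2-fold in PDR and 0 in SKYD, with a median of 0.97. Of these, Mx1 passed the filter through PDR alone. At a filter of 5 FPKM 5 passed in PDR, by the plain ratio 10 did, and centred on macrophage markers 15 did, against 24.6% of all tested genes. Ifit3 had the largest difference, 1.87, at 54.8 and 14.3 FPKM. The first by mean FPKM differed less, with Bst2 at 189 and 203 FPKM (-0.10), Oas1a at 113 and 103 (0.13) and Rtp4 at 135 and 71.7 (0.90).

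The STAT3 targets had 16 of 18 genes tested. More than 2-fold higher in PDR were 0, against 7.38% of all tested genes, and in SKYD 2 were, against 6.91%. The median of -0.36 turned positive when centred on macrophage markers, with 2 then past 2-fold in PDR and 1 in SKYD. The 2 of the main setting were Saa3, an acute phase gene with 456 FPKM in PDR and 1767 in SKYD, a log2 difference of -1.95, and Nfil3, with 12.6 and 31.0, a difference of -1.23. Next in level were Hp, with 362 FPKM in PDR and 537 in SKYD, and Cebpb, with 194 and 360. Hif1a had the largest difference towards PDR, 0.40. Stat3 itself was level, as given above.

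Of 9 STAT4 targets, 6 were tested, of which 3 passed 2-fold in PDR and 1 in SKYD, with a median of 0.92. Tbx21 and Prf1 passed the filter through PDR alone, and Hlx and Furin through SKYD alone. With no filter the counts were 3 and 1 and the median was 0.64. They were 4 and 0 when centred on macrophage markers, and 1 and 0 with a median of 2.04 at a filter of 5 FPKM. Gzmb, granzyme B, had 101 FPKM in PDR and 8.53 in SKYD, a difference of 3.43. Tbx21, the T-bet gene, had 6.37 and 0.225, a difference of 2.59, and Prf1, perforin, also an NK cell marker, had 3.53 and 0.975, a difference of 1.20. Hlx had 0.841 and 3.09, a difference of -1.15.

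STAT5 targets had 6 of 8 genes tested, with 1 more than 2-fold higher in each direction and a median of -0.16, whose sign turned with no filter, a mean FPKM of at least 5, TPM, or centring on macrophage markers. Gfi1 had 0.414 FPKM in PDR and 3.54 in SKYD (-1.68), and Pim2 had 10.1 and 3.08 (1.45). Gfi1 passed the filter through SKYD alone, and at a filter of 5 FPKM the counts were 1 in PDR and 0 in SKYD. First by mean FPKM were Ccnd3, Ccnd2 and Tnfrsf4, at 21.2 and 30.9, 9.87 and 7.72, and 7.14 and 6.13 FPKM.

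STAT6 targets had 18 genes, of which 1 (Ear11) was not found and 16 were tested, with 2 more than 2-fold higher in PDR and 7 in SKYD, and a median of -0.87. Centred on macrophage markers, 4 passed 2-fold in PDR and 3 in SKYD, with a median of -0.22. Klf4, 1 of the 7, and Egr2 passed the filter through SKYD alone, and at a filter of 5 FPKM the counts were 1 and 6. Stat6 itself was 1.48-fold higher in PDR. Ccl24, an eosinophil chemokine, had 10.7 FPKM in PDR and 170 in SKYD, a difference of -3.87. Retnla, a gene of alternative activation, had 1939 and 9809 FPKM, a difference of -2.34, and Alox15 had 236 and 683, a difference of -1.53. Chil3 went the other way, at 2264 and 1245 FPKM, a difference of 0.86. The 2 higher in PDR were Fcer2a, also a B cell marker, at a difference of 2.17, and Pdcd1lg2, at 1.37.

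**Figure D4:**
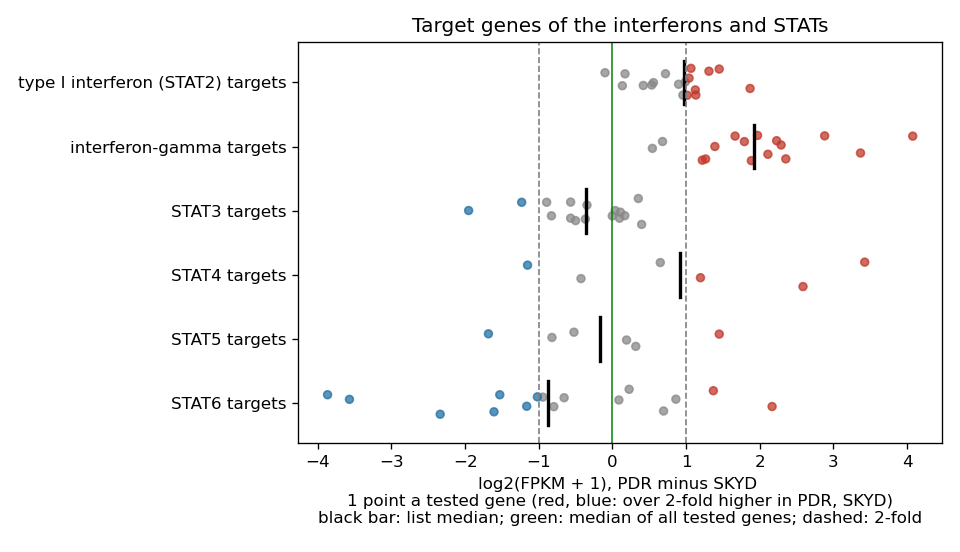
Log2(FPKM + 1) differences, PDR minus SKYD, of tested target genes, 1 point a gene, red or blue where more than 2-fold higher in PDR or SKYD, with list medians as black bars. The medians run from 1.93 for interferon-gamma targets to -0.87 for STAT6 targets.

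Cell type markers also differed between the libraries. In bulk samples, fewer cells of a type and less RNA per cell cannot be told apart. All 18 macrophage markers were tested, and both genes of the sort were present, Adgre1 (F4/80) at 87.3 FPKM in PDR and 93.3 in SKYD and Itgam (CD11b) at 8.84 and 14.4. Of the 18, 7 were more than 2-fold higher in SKYD and 0 in PDR, with a median of -0.65. Their summed level was 24997 FPKM in PDR and 48322 in SKYD, mostly Lyz2, followed by C1qb and C1qc. Cd14 had the largest difference towards SKYD, -2.65, and Marco towards PDR, 0.84. Cd163, 1 of the 7, passed the filter through SKYD alone, and at a filter of 5 FPKM the count higher in SKYD was 6. Centred on these markers, 3 of the 8 genes, Stat2, Stat4 and Stat6, passed 2-fold in PDR, against 24.6% of all tested genes, and 0 in SKYD, against 3.13%, and 88.7% of all calls lay on the PDR side, beside 51.6% before.

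Markers of lymphocytes differed in both directions. Such cells also express JAK, STAT and SOCS genes, as well as Il2rb and Gzmb. All 12 T cell markers were more than 2-fold higher in SKYD, with a median of -2.07 and summed levels of 195 and 1310 FPKM, and Cd8b1, Cd3d and Cd3g were first by mean FPKM, of which Cd8b1 also differed most (-3.72). Bcl11b differed least, at -1.34, and 9 of the 12 passed when centred on macrophage markers. Bcl11b and Themis passed the filter through SKYD alone, and at a filter of 5 FPKM the count was 10. Of 8 NK cell markers, 7 were tested and 5 were more than 2-fold higher in PDR, with a median of 1.20, sums of 452 and 211 FPKM and Gzma, Nkg7 and Klrd1 first in level. Ncr1 differed most towards PDR, 1.81, and Klrd1 most towards SKYD, -0.71. Prf1 passed the filter through PDR alone, and at a filter of 5 FPKM the count higher in PDR was 4. Of 10 B cell markers, 7 were tested and 7 were higher by more than 2-fold in PDR, with a median of 2.18 and sums of 1724 and 392.5 FPKM. Cd79b, Cd79a and Ms4a1 led in level, with differences of 2.25, 1.70 and 3.07, the last 2 being the smallest and the largest. Defining markers of these 3 lineages had reads in both libraries. Their part in the levels of the JAK, STAT and SOCS genes and of the target lists, in either direction, was not tested.

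Other markers were present as well. Neutrophil markers had 4 of 10 genes (Ly6g, Mpo, Elane and Ltf) more than 2-fold higher in PDR, a median of 0.93 and sums of 4816 and 3631 FPKM, led by S100a9, S100a8 and Ngp. Elane differed most towards PDR, 2.36, and Retnlg most towards SKYD, -0.32. Mpo passed the filter through PDR alone, and at a filter of 5 FPKM the count higher in PDR was 3. Hepatocyte markers had 8 of 9 tested genes more than 2-fold higher in PDR, a median of 1.69 and sums of 2197 and 755 FPKM, led by Apoa2, Fabp1 and Apoa1. Serpina1a differed most, 1.99, and Trf had -0.50. Erythroid markers had 0 of 6 tested genes past 2-fold, a median of -0.29 (positive with centring on macrophage markers) and sums of 20988.5 and 28334.9 FPKM, led by Hba-a1, Hbb-bs and Hbb-bt, and Hba-a2 differed most towards SKYD, -0.59. Platelet markers had 1 of 4 tested genes more than 2-fold higher in SKYD, Pf4 at -2.72, which made up most of the sums of 250 and 1470 FPKM, and Treml1 had 0.92, while the median was 0.27 and turned negative with a mean FPKM of 5 or more. Ppbp and Gp9 were the next in level, and Treml1 passed the filter through PDR alone.

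Dendritic cell markers had 1 of 6 tested genes past 2-fold, Siglech at -3.06, a median of -0.17 (positive with that centring) and sums of 253 and 252 FPKM, mostly Bst2, before Ccr7 (0.89). Fibroblast and smooth muscle markers summed to 12.2 and 43.9 FPKM, led by Dcn (-1.87) and Acta2 (-0.39), and the smooth muscle markers Tagln and Myh11 had 0 reads in both. Endothelial markers summed to 5.12 and 3.25 FPKM, with Pecam1 the 1 tested gene (0.45) and Emcn at 0 reads in PDR. Mast cell and basophil markers summed to 15.1 and 19.1 FPKM, with Mcpt8 at 1.29, Cpa3 at -1.15 and Fcer1a at -0.13, the median of the 3, which turned positive with centring, and Mcpt4 and Tpsb2 had 0 reads in both. Among the dendritic cell markers, Siglech and Xcr1 passed the filter through SKYD alone and Fscn1 through PDR alone. The part of these cell types in the SOCS and STAT levels was not tested.

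**Figure D5:**
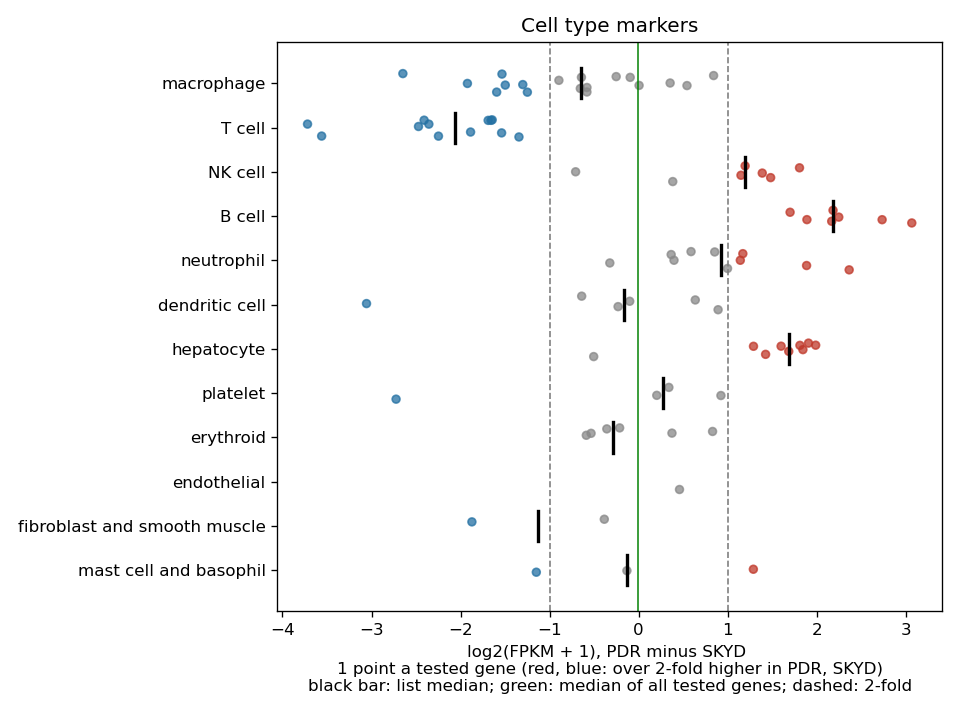
Log2(FPKM + 1) differences, PDR minus SKYD, of tested cell type markers, 1 point a gene, red or blue where more than 2-fold higher in PDR or SKYD, with list medians as black bars. All 7 tested B cell markers lie to the right of 1 and all 12 T cell markers to the left of -1, while macrophage markers have a median of -0.65.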

How the data were processed

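RNA of sorted aortic macrophages was sequenced in 1 library per group. The authors used TopHat2 2.0.9 with Bowtie2 2.0.6 for alignment and HTSeq 0.6.1 for counting and deposited FPKM with gene lengths and positions. The submitters' notes name mm9, but 98.3% of 54495 shared genes have the start and end of a GRCm38 annotation. The labels and the article name different sequencers. The strand setting of the counting is not given in the sources used here. The size behind FPKM was 1.02 times the recovered reads in PDR and 0.983 times in SKYD. Differences, intervals, list counts and medians were computed as described, with a pseudocount of 1, and no p-value was computed. Windows of 100 bases of GENCODE transcripts were searched for shared sequence. The steps were tested on simulated data. The members and lists were chosen with earlier results of these data known. Named genes are the 9 genes and, of each list, the 3 with the highest mean FPKM, the largest difference each way, every gene past 2-fold where these were 4 or fewer, and a fixed set of ligands, of which a few are not named in the text. Others were named for their role after their values were seen. Software was scipy 1.17.1, matplotlib 3.10.9, pandas 2.3.3, numpy 2.4.6 and Python 3.11.15. The alternatives were other pseudocounts, filters, scales, centrings, gene classes and thresholds.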

Additional observations from a re-analysis of the deposited data

How the results depend on the processing

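The count of the 8 tested genes more than 2-fold higher in PDR was 0 in the main setting and 2 at pseudocounts of 0.1 and 0.01 and for the plain FPKM ratio, and 3 when centred on macrophage markers. The count higher in SKYD was 1, and it was 2 at both pseudocounts, with TPM and for the plain ratio, and 0 when centred on macrophage markers or at a 4-fold threshold. The median difference of the genes was 0.14, and it was -0.032 with no filter, which adds Cish, -0.065 at a filter of 5 FPKM, which keeps 6 of them, and 0.79 when centred on macrophage markers. Among all tested genes, 767 were higher in PDR and 719 in SKYD. These counts were 464 and 373 at a filter of 5 FPKM and 2562 and 326 when centred on macrophage markers. They were 194 and 216 at 4-fold, and 542 and 473 among protein-coding genes only. Fewer genes enter a stricter filter or gene class, and the cause of the other changes was not tested. Scaling by the reads on genes and the plain ratio were chosen after seeing the data. For single genes and lists, 868 of 1065 alternative values stayed within the counting interval or 1.5 times the count, 197 moved further and 0 turned a called difference. No paired analysis was possible because each group has 1 library and the groups share no animals. With 1 pool of 5 mice a group, the spread between mice is not known, and depth limits mainly Cish and the ligands under the filter.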
